A study of Mus musculus with 18 samples.

Results

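Imprinted genes that act on fetal and postnatal growth were followed through the peak lists of a methylation study of mouse heart after myocardial infarction. The 10 genes were H19, Igf2, Igf2r, Grb10, Plagl1, Meg3, Dlk1, Gnas, Snrpn and Impact, chosen by name out of 49943 genes with a position in the RefSeq table. Each gene was taken as its span on GRCm38 with 10000 bases on either side, and the interval from H19 to Igf2 and that from Dlk1 to Meg3 were each taken whole. This gave 8 loci of 1174 kb in all, which held 65 of the 152196 merged peak regions of the series.

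The study used 18 male C57BL/6JR mice aged 12 weeks, 3 in each of 6 groups. In 5 groups the left anterior descending coronary artery was tied off, and the heart was taken later, at 10 min in the first group, 1 h in the next, then 6 h, and in the last groups 24 h or 72 h. The sham group had the same surgery with the suture placed but not tied. The labels name no transgene and no agent other than the anaesthetics. DNA was sheared, fragments were captured with an antibody against 5-methylcytosine (MeDIP-seq), and each mouse gave 1 library with its own list of peaks. The labels name the source as myocardial tissue and the cell type as cardiomyocytes, and describe no step that separates cells. Methylation peaks hold no transcript levels, so the cell type could not be checked by expression of its markers. After infarction a tissue sample can hold other shares of cell types, and a change of those shares cannot be told apart here from a change of methylation within a cell type.

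Imprinted genes are transcribed from 1 parental copy. The choice of copy is set by a control region that is methylated in the egg or in the sperm, and this mark is kept in the tissues of the body after the genome-wide loss of methylation in the early embryo. The control regions of H19-Igf2 and of Dlk1-Meg3 lie between genes and are methylated on the paternal copy. Those of Igf2r, Grb10, Plagl1, Snrpn, Impact and the Gnas cluster lie at gene starts or inside genes and are methylated on the maternal copy. Igf2 encodes a fetal growth factor, Igf2r a receptor that removes it, Grb10 an adaptor that restrains insulin and IGF receptor signalling, and Plagl1 a zinc finger transcription factor. H19 and Meg3 are long noncoding RNAs, Dlk1 is a transmembrane protein of the Notch ligand family, and Gnas encodes the stimulatory G protein alpha subunit. Snrpn encodes a small nuclear ribonucleoprotein, and Impact a regulator of the amino acid starvation response.

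The annotated starts beside the control regions differ in how many CG pairs, the sites that carry the mark, they offer to the antibody. RefSeq's GRCm38.p6 promoter table, which gives 300 bases around each start, held 8 of the 10 genes. The sequences below are the starts on which the peak results turn, written 5′ to 3′ on the strand of the gene with each CG pair in capitals. Those of Airn, Plagl1, Gnas, Grb10 and Snrpn were touched by a peak region, and those of Meg3 and Igf2r, shown for contrast, were not.
Meg3, chr12:109540746-109541045, plus strand: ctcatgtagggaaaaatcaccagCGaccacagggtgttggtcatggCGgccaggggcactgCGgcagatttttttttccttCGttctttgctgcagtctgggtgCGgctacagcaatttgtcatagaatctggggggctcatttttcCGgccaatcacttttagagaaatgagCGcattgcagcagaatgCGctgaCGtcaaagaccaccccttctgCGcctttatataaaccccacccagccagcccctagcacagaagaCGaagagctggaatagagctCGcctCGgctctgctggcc
Airn, chr17:12741061-12741360, plus strand: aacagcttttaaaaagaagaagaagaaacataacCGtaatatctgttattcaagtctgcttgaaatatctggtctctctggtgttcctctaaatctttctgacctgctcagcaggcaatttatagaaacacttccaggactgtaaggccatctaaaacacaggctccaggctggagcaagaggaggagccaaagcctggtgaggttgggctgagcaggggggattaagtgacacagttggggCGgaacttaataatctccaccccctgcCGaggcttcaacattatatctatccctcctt
Igf2r, chr17:12769657-12769956, minus strand: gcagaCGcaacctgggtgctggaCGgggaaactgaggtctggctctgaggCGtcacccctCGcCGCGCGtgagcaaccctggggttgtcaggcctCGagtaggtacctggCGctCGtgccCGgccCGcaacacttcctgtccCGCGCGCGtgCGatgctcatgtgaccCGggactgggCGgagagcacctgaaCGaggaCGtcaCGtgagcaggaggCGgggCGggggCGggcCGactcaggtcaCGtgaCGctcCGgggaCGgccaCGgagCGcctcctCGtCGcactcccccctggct
Plagl1, chr10:13090582-13090881, plus strand: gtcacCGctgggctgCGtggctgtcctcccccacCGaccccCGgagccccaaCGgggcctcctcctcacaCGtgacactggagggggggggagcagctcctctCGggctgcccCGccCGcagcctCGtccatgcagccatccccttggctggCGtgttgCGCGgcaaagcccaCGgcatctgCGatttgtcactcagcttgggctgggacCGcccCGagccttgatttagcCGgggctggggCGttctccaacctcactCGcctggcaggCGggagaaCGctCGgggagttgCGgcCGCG
Gnas, chr2:174327499-174327798, plus strand: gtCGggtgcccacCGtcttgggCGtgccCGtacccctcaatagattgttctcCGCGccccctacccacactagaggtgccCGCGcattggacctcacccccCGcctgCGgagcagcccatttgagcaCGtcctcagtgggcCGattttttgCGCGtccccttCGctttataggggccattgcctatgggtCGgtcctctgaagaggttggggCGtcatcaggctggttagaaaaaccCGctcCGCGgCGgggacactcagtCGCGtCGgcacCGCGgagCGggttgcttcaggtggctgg
Grb10, chr11:12027922-12028221, minus strand: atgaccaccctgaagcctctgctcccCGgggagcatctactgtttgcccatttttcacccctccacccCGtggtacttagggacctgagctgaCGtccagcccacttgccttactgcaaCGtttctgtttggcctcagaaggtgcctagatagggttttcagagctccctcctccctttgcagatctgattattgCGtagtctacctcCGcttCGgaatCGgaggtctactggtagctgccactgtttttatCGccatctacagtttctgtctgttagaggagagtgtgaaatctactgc
Snrpn, chr7:60005150-60005449, minus strand: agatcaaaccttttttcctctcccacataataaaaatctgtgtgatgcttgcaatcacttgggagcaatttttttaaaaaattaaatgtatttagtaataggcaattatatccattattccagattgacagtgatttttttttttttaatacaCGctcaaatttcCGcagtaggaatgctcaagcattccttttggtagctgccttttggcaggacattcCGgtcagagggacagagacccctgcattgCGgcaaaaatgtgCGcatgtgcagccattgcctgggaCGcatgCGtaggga

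The Igf2r promoter held 34 CG pairs, the Gnas start shown 27, the Plagl1 promoter 26 and the Meg3 start shown 13, against a median of 7 over 32851 RefSeq promoters. The inner Grb10 start held 9, the Snrpn start 7 and the Airn start 3. The hexamer TGCCGC, the letters read by the imprint-keeping zinc finger protein ZFP57 when methylated, was searched on both strands. It occurred 1 time each in the Meg3, Plagl1 and Snrpn windows, and also in the outer Grb10 promoter (chr11:12037371-12037670) and 1 Igf2 promoter (chr7:142661222-142661521), neither of which was under a peak. Of all promoters, 11.6% held it. A match is a description of the letters and not of binding.

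The shortest list, that of 6 h replicate 3, had 34255 peaks, and the longest, of 72 h replicate 2, had 60653. They carry a score per peak whose scale is not given, with a lowest value of 50.0 in every list, and no read counts, so the depth of the libraries is unknown. Scores are the authors' own and are used below only to describe peaks and to rank them within a list, as a percentile. A missing peak means that none passed the authors' threshold, not that the DNA was free of methylation.

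One region of the 8 loci had a peak in all 18 libraries. It lay between Dlk1 and Meg3 at chr12:109526036-109528728, inside the predicted noncoding gene Gm34081 and between 12.3 and 14.96 kb upstream of the Meg3 start, where the intergenic control region of this cluster is known to lie. Its 18 peaks were 1874 to 2675 bases wide, with a median of 2139, and a core of 1682 bases at chr12:109526489-109528170 was under a peak in every library. In sham its scores were 158, 184 and 93.2 in replicates 1 to 3. At 10 min they were 197, 202 and 96.2, and at 1 h 173, 147 and 133. At 6 h they were 195, 99.97 and 148.

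These peaks were among the high scorers of their lists at each time. The scores at 24 h were 139, 178 and 237, and those at 72 h were 222, 221 and 215. The percentile within its own list ranged from 75.9 to 99.6 with a median of 97.0. The lowest scores belonged to sham replicate 3, 10 min replicate 3 and 6 h replicate 2, so the spread within those groups was wide. Of all merged regions, 5.09% had a peak in all 18 libraries, against 1 of 65 (1.54%) in these loci.

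**Figure D1:**
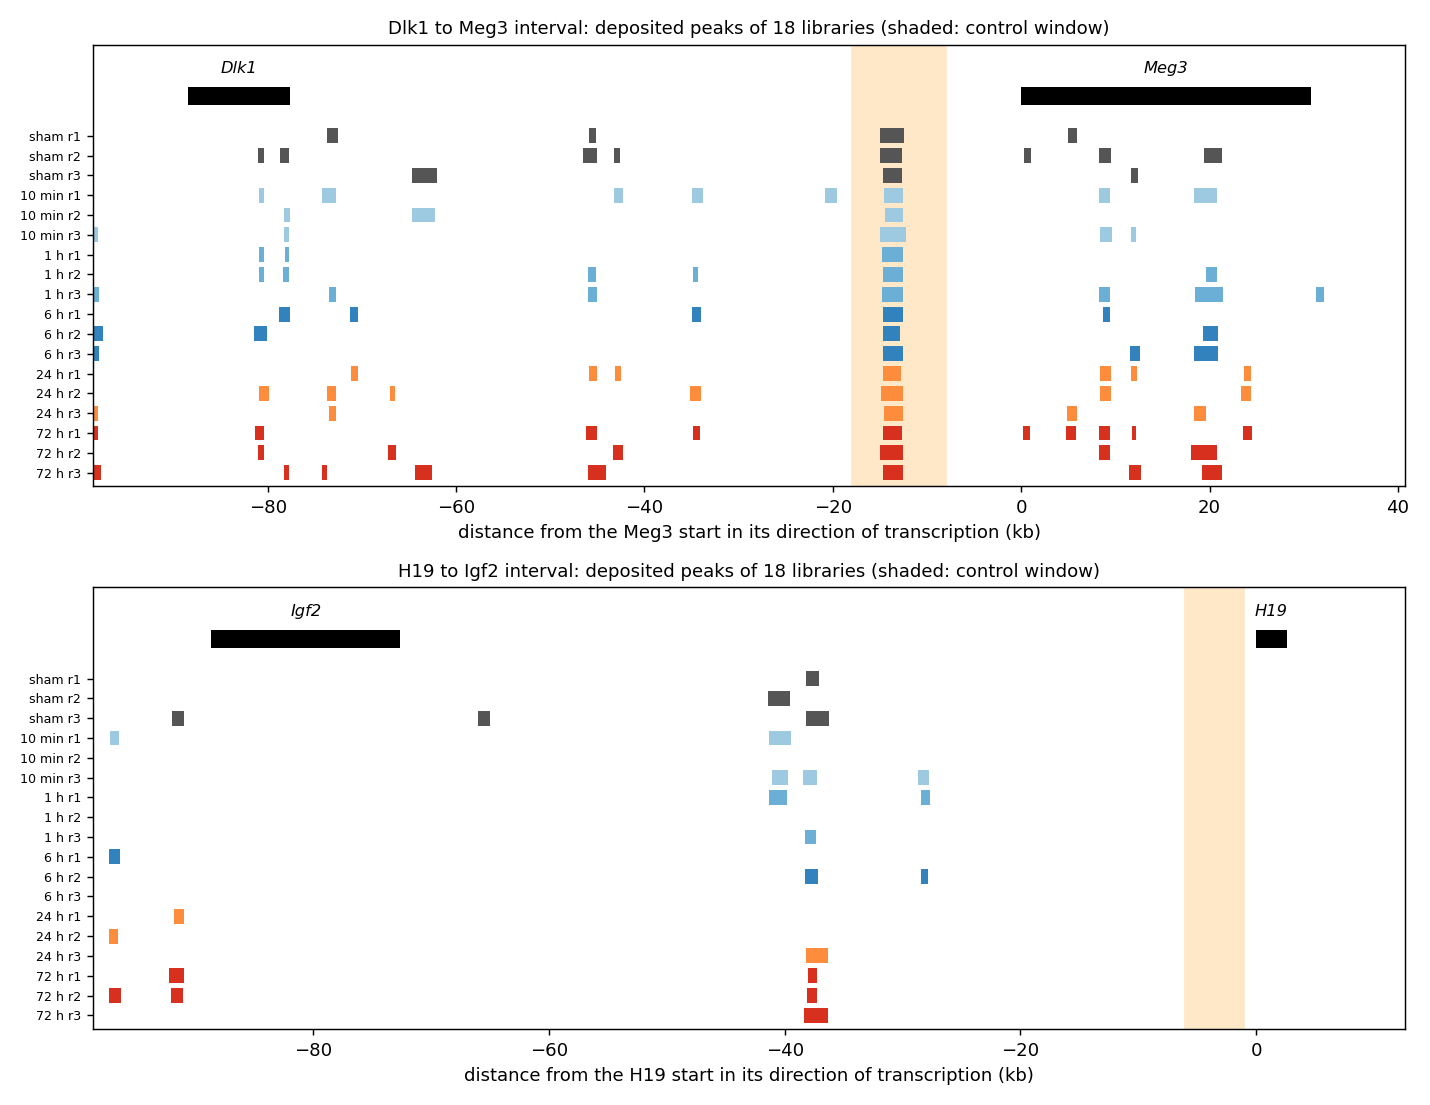
Maps of the Dlk1-Meg3 and H19-Igf2 intervals, with 1 row per library coloured by group, blocks for its peaks, black bars for the genes, shading for the control window, and distance in kb from the Meg3 or H19 start on the horizontal axis (peaks that cross the edge are cut there). All 18 libraries have a peak in the shaded window upstream of Meg3, none has one in that of H19, and no peak touches H19 or Igf2.

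None of the other control windows had a peak in every library. For 8 windows placed by known distances from annotated gene starts, 1 had a peak in all 18 libraries, 3 in none and 4 in 1 to 9. Of windows of 2000 bases on each side of 32851 annotated starts, 33.4% had a peak in at least 1 library, 8.56% in at least 9 and 1.32% in all 18. Only the control windows at the Airn, Plagl1, Snrpn, Impact and Nespas starts had this form. Those of H19, Meg3 and Gnas lay upstream of a start and were 5001, 10001 and 3001 bases wide. No share was computed for windows like them, so 1.32% is not a reference for the Meg3 window.

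At H19, no library had a peak in the gene, within 10000 bases of it, or in a window of 5001 bases upstream of its start (chr7:142579146-142584146), where its control region is known to lie. The window at the Impact start (chr18:12952690-12956690) and that at the Nespas start in the Gnas cluster (chr2:174293436-174297436) also had none. The Impact window was set at the first base of the RefSeq span, since the promoter table held no Impact start. It may miss the control region, so its lack of peaks does not describe that region. Inside the gene, 13 libraries had a peak. At the start that Snrpn shares with Snurf, 1 library, sham replicate 2, had a peak, with a score of 51.2.

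The Airn start, inside Igf2r, and the Plagl1 start had peaks in some libraries of several groups. Airn is the noncoding RNA that silences Igf2r on the paternal copy. The region chr17:12741114-12741920, which holds its start, had a peak in 4 libraries: sham replicate 1 (79.5), 24 h replicate 2 (60.3), and 72 h replicates 1 (107) and 3 (59.2). At Plagl1, the region chr10:13088650-13090635 ended just before the start and reached 54 bases into the promoter shown above. It had a peak in 9 libraries, 2 each of sham, 1 h and 24 h and 1 each of the 10 min, 6 h and 72 h groups, with scores from 50.1 to 105. No time point had it in all 3 libraries.

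In Gnas, the window upstream of the start that lies farthest 3′ had a peak in 6 libraries. The region, chr2:174326592-174327869, covered all 300 bases of the Gnas start shown above. It was found in 2 sham libraries (90.9 and 87.8), in 1 at 1 h (62.0), in 1 at 24 h (79.1) and in 2 at 72 h (106 and 79.4), and in none at 10 min or 6 h. Other Gnas starts were under no peak. They were that farthest 3′ (chr2:174329756-174330055), with 40 CG pairs, and that at chr2:174284070-174284369, with 16. The region at the inner Grb10 start, chr11:12028012-12029068, was present only in 72 h replicates 1 (81.7) and 3 (90.5). Its outer promoter, with 45 CG pairs, was under no peak.

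Between H19 and Igf2 the peaks lay away from both genes. The interval held 6 regions and 25 peaks. The region found most often, chr7:142614383-142616558 in the predicted gene Gm33148, had a peak in 9 libraries. They were 2 of sham, 1 each at 10 min, 1 h, 6 h and 24 h, and all 3 at 72 h, with scores of 74.8, 64.1 and 53.5 at 72 h. A region over Igf2os, the antisense RNA of Igf2, at chr7:142669089-142670406, had a peak in 4 libraries. Igf2 itself was under no peak in any library, and 7 libraries had one within 10000 bases of it.

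Dlk1-Meg3 was the locus with most peaks, 103 of the 294, in 19 regions. Meg3 had a peak inside the gene in 16 libraries and Dlk1 in 12. Inside Meg3, the regions chr12:109549210-109550588 and chr12:109559077-109562440 each had a peak in 9 libraries, with scores of 50.2 to 92.3 and of 50.8 to 69.0. The 2 regions over Dlk1 were found in 8 and 7 libraries, with scores of at most 81.0. None of these reached the lowest score of the region upstream of Meg3, 93.2, though scores of different lists may not be alike in scale. Regions of the interval outside both genes did exceed it. Upstream of Dlk1, chr12:109441837-109443453 scored 109 in 10 min replicate 3, where the region upstream of Meg3 scored 96.2, and 104 in 72 h replicate 1. In Gm34081, chr12:109505840-109507225 scored 96.7 in 72 h replicate 1.

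Igf2r held the first of 2 regions that were gained, meaning a peak in all 3 libraries of a time point and in no sham library. It lay in the gene near its 3′ end at chr17:12687204-12689544. No library of sham, 10 min or 1 h had a peak there. At 6 h, replicates 1 (58.7) and 3 (83.7) had one, and at 24 h replicates 1 (86.3) and 2 (51.5). At 72 h the scores were 100.61, 71.7 and 89.97. Of all merged regions, 0.719% were gained at 72 h, against 1 of 65 here, so the count was 1 region and is not read as particular to the loci.

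The second was inside Gnas at chr2:174316368-174317809 and was gained at 24 h, when its scores were 103, 93.3 and 55.4. It also had a peak in 10 min replicate 1 (78.5), 6 h replicate 1 (52.6) and 72 h replicates 2 (61.4) and 3 (63.5), and none in sham or at 1 h. The share of all regions gained at 24 h was 0.393%. With equal numbers of top-scoring peaks it was no longer gained, while the Igf2r region still was. With peaks of a score of at least 100 neither was. No region of the loci was gained at 10 min, 1 h or 6 h, where 0.216%, 0.225% and 0.201% of all regions were. None was lost, meaning a peak in all sham libraries and none at a time point, at any time. Over all regions the share lost was 0.624% after 10 min and 0.553% after 1 h. It was 0.706% for the 6 h group, 0.524% for that of 24 h and 0.397% for that of 72 h. Without sham replicate 1, 2 or 3 the count lost was 3, 1 and 6, and without 10 min replicate 3 it was 1. Fewer libraries make the rule easier to meet. The share of all regions lost was not computed for these cases, so their counts are not read as particular to the loci.

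**Figure D2:**
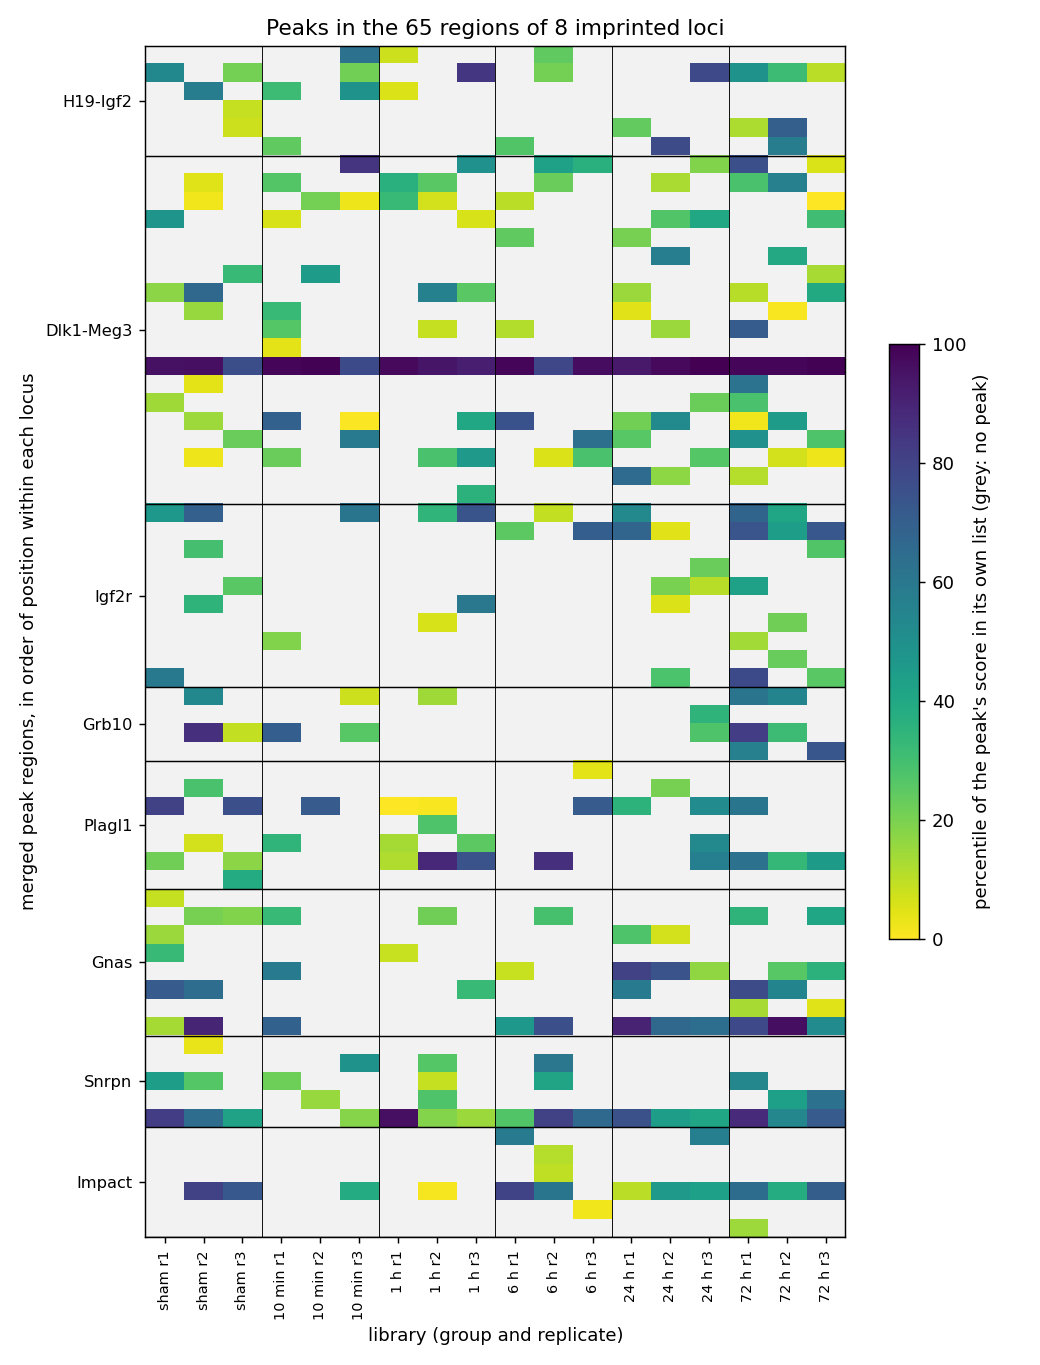
Peak regions of the 8 loci (rows) in each of the 18 libraries (columns, by group), with the percentile of the peak's score in its own list as colour and grey where no peak was listed. The region upstream of Meg3 is filled in every column, and most other rows are filled in a few.

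Regions inside the other genes recurred without a full split between groups. In Snrpn, chr7:60208895-60210412 was found in 16 libraries, all but 10 min replicates 1 and 2, with scores from 55.0 to 157. In Impact, chr18:12962316-12964048 was found in 12, 2 of sham, 1 each at 10 min and 1 h, 2 at 6 h and 3 each at 24 h and 72 h. Near the 3′ end of Gnas, chr2:174344798-174346870 was found in 11, 2 of sham, 1 at 10 min, none at 1 h, 2 at 6 h and 3 each at 24 h and 72 h, with scores up to 176. In Plagl1, chr10:13126933-13128404 was found in 10, among them all 3 at 1 h and all 3 at 72 h.

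Regions of the loci were seen in a median of 3 of 18 libraries, as were all 152196 merged regions. Of the 65, 2 were seen in at least 16 libraries, against 9.2% of all regions. A peak in 1 library only was the case for 15 of 65 regions (23.1%, against 29.2% of all regions), and a peak in at least 9 for 10 (15.4%, against 25.2%). Of the 65 regions, 41 overlapped 1 of the 10 genes, 12 overlapped no gene of the table, and 3 held an annotated start of a member, Airn or Snurf. The 294 peaks had a median score of 64.2 and a median percentile of 35.1 within their lists.

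**Figure D3:**
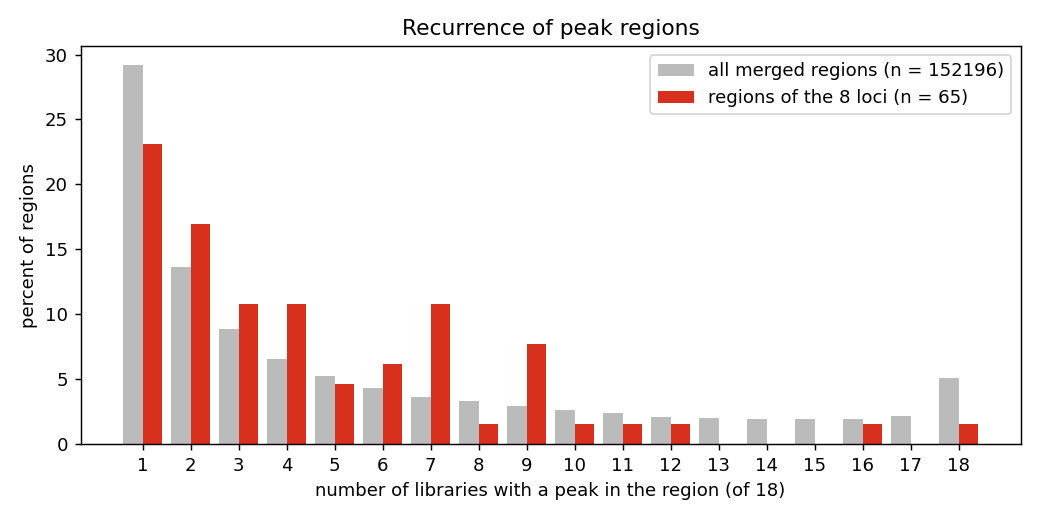
Percent of peak regions (vertical axis) by the number of libraries with a peak (horizontal axis), for all 152196 merged regions and for the 65 regions of the 8 loci. The loci have 1.54% of their regions in all 18 libraries, against 5.09% of all regions.

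To compare whole loci, the percent of each locus under peaks was taken in every library. Averaged over the 18 libraries it was 5.12% at Dlk1-Meg3, 3.13% at Gnas, 2.83% at Plagl1, 1.88% at Impact, 1.87% at Igf2r, 1.48% at H19-Igf2, 0.583% at Grb10 and 0.326% at Snrpn. The median over all 40898 gene windows with a peak was 2.35%, and 3 of the 8 loci were above it. The SD over libraries was 1.66 at Dlk1-Meg3, 2.12 at Gnas and 1.92 at Plagl1, and the values of Gnas and Plagl1 overlapped. Those of Impact, Igf2r and H19-Igf2, with SDs of 1.59, 1.36 and 1.06, overlapped as well. These SDs span all 6 groups, and differences between loci within the same library were not tested.

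No locus passed the test for a difference over the 6 groups. A permutation test of the share of variance between groups, with Benjamini-Hochberg adjustment over all 40898 windows, gave adjusted p from 0.896 (Impact) to 1.0. None of the 40898 windows passed (0.0%), with a lowest adjusted p of 0.136, while 2205 (5.39%) had an unadjusted permutation p under 0.05. On simulated windows with only 72 h shifted, this adjusted test found 0.0% even at 8 SD. A failed adjustment therefore does not show that values did not differ. Shifts of several groups were not simulated. Impact was the 1 locus of 8 among the 2205 windows, with p = 0.0251, and Igf2r (0.0606) and Gnas (0.0716) followed in the same permutation test. The limma F test on square roots of the percents, added after the data had been seen, called 57 windows (0.139%) and none of the 8 loci, with a lowest adjusted p of 0.658 among them.

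Impact had its highest cover at 6 h, with 4.47%, 5.46% and 1.82% in replicates 1 to 3. In sham the values were 0.0%, 2.32% and 1.64%, and the groups overlapped. They were 0.0%, 0.0% and 1.65% at 10 min and 0.0%, 1.48% and 0.0% at 1 h. At 24 h they were 1.48%, 2.67% and 2.88%, and at 72 h 3.56%, 1.64% and 2.73%. The difference between 6 h and sham was 2.60 percentage points (exact two-sided permutation p = 0.2).

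Against sham, all 3 libraries of a time point lay below all 3 sham libraries in 5 of 40 comparisons, and above them in none. With 3 libraries against 3 the exact test cannot give a p under 0.1, which each of the 5 reached. Over all windows, 4.36% lay below and 2.22% above sham for 10 min. The shares were 6.21% and 1.58% for 1 h, 4.69% and 2.34% for 6 h, 4.61% and 2.37% for 24 h, and 2.96% and 4.7% for 72 h. These counts depended on each sham library. Without sham replicate 2, 6 comparisons lay above, and without sham replicate 1 or 3, 9 and 10 lay below. Fewer sham libraries also make the rule easier to meet, and the causes were not tested. The shares over all windows were not computed with a library left out.

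Plagl1 accounted for 3 of the 5. Its sham values were 4.03%, 3.31% and 6.55%. At 10 min they were 1.94%, 2.40% and 0.0%, at 6 h 0.0%, 1.51% and 2.79%, and at 72 h 2.84%, 1.495% and 1.70%, all under the lowest sham library. The means were 4.63% ± 1.70 (SD, n = 3) in sham and 1.44% ± 1.27, 1.43% ± 1.40 and 2.01% ± 0.723 at these times, each with exact permutation p = 0.1. At 1 h (4.26% ± 0.736) and 24 h (3.19% ± 2.98) the libraries overlapped with sham. With only the 34255 highest-scoring peaks of each list the differences at 10 min, 6 h and 72 h were -0.987, -0.997 and -0.919 percentage points, and none of the 3 stood apart from sham. None stood apart with flanks of 2000 bases either.

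Gnas lay below sham at 1 h. Its values were 5.84%, 5.04% and 2.39% in sham and 0.922%, 2.09% and 0.968% at 1 h. At 72 h, with 5.51%, 4.35% and 5.56%, Gnas overlapped with sham. Snrpn lay below sham at 24 h, with 0.227%, 0.173% and 0.219% against 0.450%, 0.533% and 0.282%. With equal numbers of top-scoring peaks these differences were -0.789 percentage points for Gnas and -0.104 for Snrpn, and neither stood apart from sham.

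Igf2r, Grb10 and Dlk1-Meg3 had their highest mean at 72 h without standing apart from sham. Igf2r was at 3.86%, 3.82% and 3.36% at 72 h, but sham replicate 2 was at 3.93%, beside 1.14% and 0.456% in the other sham libraries. Grb10 was at 1.77%, 1.52% and 0.810% at 72 h and at 0.0% in all 3 libraries at 6 h, and its sham libraries were at 0.0%, 1.69% and 0.630%. Dlk1-Meg3 was at 6.92%, 6.30% and 7.997% at 72 h, with sham at 3.83%, 7.08% and 4.02%. With 34255 peaks per list, Igf2r at 72 h, with 3.17%, 1.72% and 1.59%, lay above all its sham libraries, which were at 1.14%, 1.42% and 0.456%. Dlk1-Meg3 then had its highest mean at 1 h (3.94% ± 2.06) and not at 72 h (3.18% ± 0.182). Grb10 was still highest at 72 h (1.21% ± 0.499) and overlapped with sham. At H19-Igf2 the 72 h mean was 2.08% ± 0.438 and the sham mean 2.12% ± 1.34 (SD, n = 3 each).

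**Figure D4:**
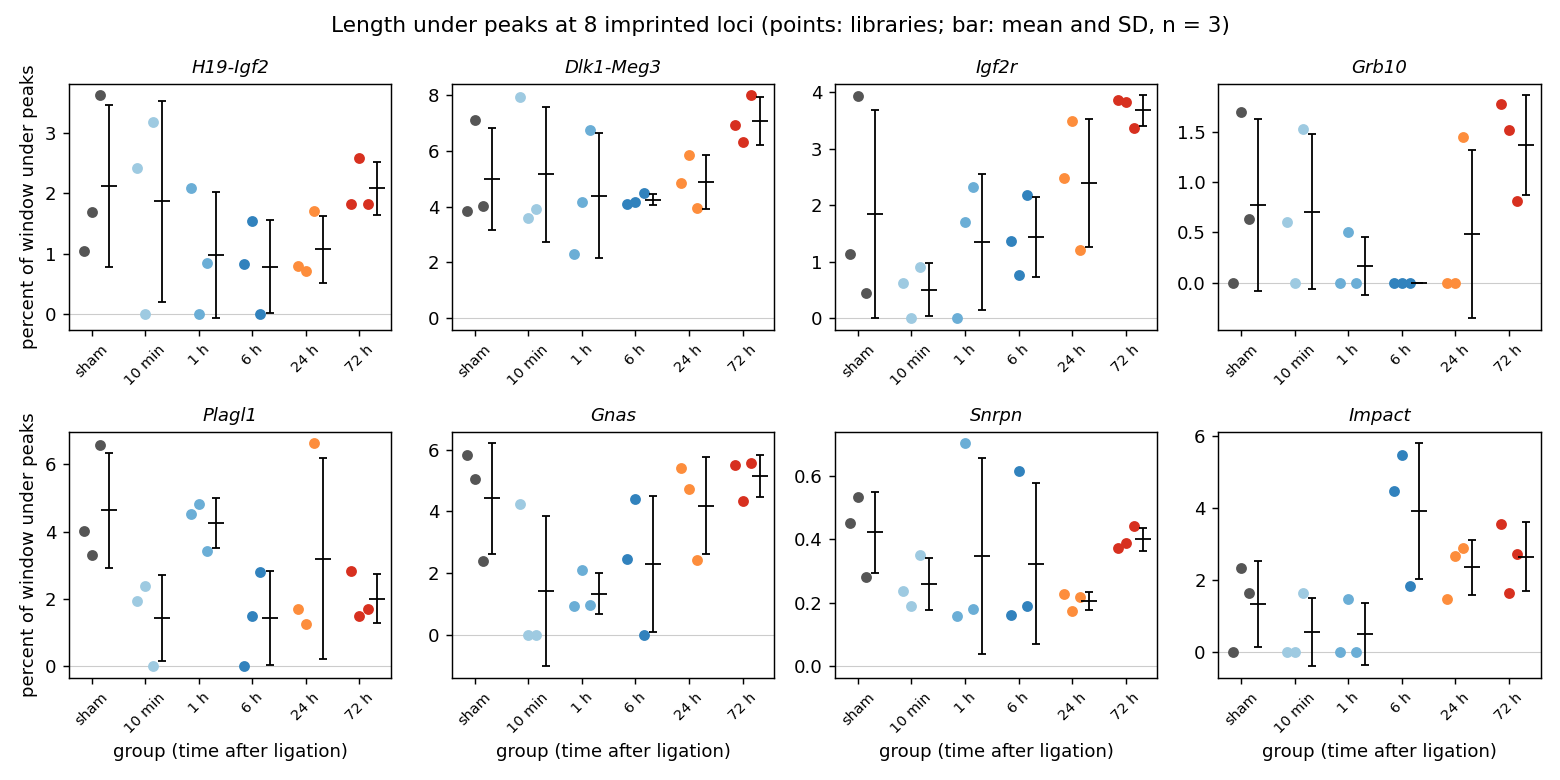
Percent of each locus under peaks (vertical axis) by group (horizontal axis), with a point per library and the mean with SD over 3 libraries, which can reach below 0. Plagl1 lies below its sham libraries at 10 min, 6 h and 72 h, and Grb10 is at 0 in all libraries at 6 h.

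The summed cover of the loci moved with the length of the lists. The sham libraries had 21.5 ± 5.88 kb under peaks (SD, n = 3, as in the other groups). The 10 min group had 14.3 ± 6.81 kb, the 1 h group 14.5 ± 4.10 and the 6 h group 14.9 ± 3.61. The later groups had more, 18.9 ± 1.06 kb for 24 h and 26.8 ± 1.63 for 72 h. Over 18 libraries its Spearman rho with the number of peaks in the list was 0.843. With 34255 peaks per list it was 12.2 ± 1.84 kb for sham, 8.07 ± 1.49 for 10 min and 9.83 ± 5.56 for 1 h. The 6 h group then had 10.95 ± 1.22 kb, the 24 h group 11.9 ± 2.33 and the 72 h group 15.5 ± 2.56. The 72 h mean was the highest and the 10 min mean the lowest in both cases. The genes outside the loci whose cover was most like this sum over the 18 libraries were Map3k11 (rho 0.897), Tprgl (0.876) and Zfp609 (0.876).

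The wider IGF pathway, 20 genes of the binding proteins, receptors and the kinase cascade below them, was described in the same way. At 72 h, 3 of 20 genes lay above all sham libraries, the binding proteins Igfbp1, Igfbp3 and Igfbp7, and 2 below, the ligand Igf1 and Igfbp6, where 4.7% of all windows lay above and 2.96% below. Igfbp3 was at 6.88%, 6.15% and 4.79% at 72 h, at 4.49%, 2.47% and 3.14% in sham and at 0.0% in all 3 libraries at 10 min. Igfbp1 and Igfbp3 are neighbours on chromosome 11 whose windows share peaks. They are therefore not separate counts, at 72 h or at the times below. The median difference of the list at 72 h was 0.551 percentage points, beside 0.0761 over all windows. At 10 min 1 gene was above (Igf1) and 4 below, among them Igfbp1 and Igfbp3, beside 2.22% and 4.36% of all windows, and the median was -0.785 beside -0.120. At 1 h 1 gene was above (Igf1 again) and 2 below, beside 1.58% and 6.21% of all windows. The median was -0.805 beside -0.298. At 6 h 0 were above and 1 below, beside 2.34% and 4.69% of all windows, and the median was -0.338 beside -0.185. At 24 h 0 were above and 3 below (Foxo3, Igfbp1 and Igfbp3), beside 2.37% and 4.61%, with a median of -0.303 beside -0.0808.

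Of 25 other imprinted genes 23 had a window with a peak in at least 1 library. None of these lay above sham at any time, where 1.58% to 4.7% of all windows did. Between 1 and 3 of the 23 lay below at each time, where 2.96% to 6.21% of all windows did. Those below were Inpp5f at 10 min, Inpp5f and Nap1l5 at 1 h, Cdkn1c and Nap1l5 at 6 h, Nap1l5 and Slc22a3 at 24 h, and Cdkn1c, Inpp5f and Nap1l5 at 72 h. Cdkn1c, a cell cycle inhibitor, was at 3.97%, 3.60% and 3.75% in sham, at 0.0% in all libraries at 6 h, and at 0.0%, 0.0% and 2.52% at 72 h. Of the 8 cardiomyocyte marker genes, the troponin gene Tnnt2 lay above sham at 24 h and 72 h and Myl2 below at 1 h. Tnni3, also a troponin gene, was at 0.0%, 0.0% and 4.07% in sham and at 0.0% in all libraries at 72 h. The windows of the list were at 1.28% ± 0.414 in sham and 2.25% ± 0.842 at 72 h (SD, n = 3). Leukocyte markers were at 1.79% ± 0.320 in sham and 2.14% ± 0.200 at 72 h, with 1 of 7 genes, the macrophage receptor gene Csf1r, above sham at 72 h. Csf1r lay below sham at 1 h and 6 h, and Adgre1 below at 1 h. Fibroblast markers were at 2.57% ± 0.348 and 2.60% ± 1.32, with 0 of 5 genes above or below at 72 h and Col3a1 below at 24 h. Endothelial markers were at 4.13% ± 1.41 and 4.52% ± 0.950, with Tek, an angiopoietin receptor gene, above sham as 1 of 5 at 72 h and also at 1 h. The part of these cell types in the results of the loci was not tested.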

How the data were processed

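MeDIP-seq was performed on myocardial DNA of 18 mice, 3 per group. The submitters' processing notes name Bowtie2, MACS2 and the build mm10, which is GRCm38, with no versions or parameters. The authors deposited 1 peak list per library, with positions and a score per peak. The scale of the score and the threshold are not given in the sources used here. Read counts and depth were not given, so no count test was used.

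Peaks of all libraries were merged into regions where they overlapped by at least 1 base. For each gene window the percent of bases under peaks was computed per library, and its share of variance between the 6 groups was tested with 100000 relabelings and Benjamini-Hochberg adjustment over 40898 windows. Each time was compared with sham by an exact two-sided permutation test, with a smallest p of 0.1. Alternatives were a score of at least 100, the 34255 top-scoring peaks per list, cover of at least 50% of a region or 500 bases of a window, flanks of 2000 bases, peak number, a replicate block, and leaving out each library. limma 3.58.1 was added after the data had been seen. On simulated data of 5000 windows with 200 shifted at 72 h by 8 SD, the permutation test found 100.0% unadjusted and 0.0% adjusted, and limma found 97.0% adjusted. Shifts of 4 SD were found by limma in 7.5%.

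All 10 genes were named whatever their values, with each region present in at least 17 libraries, gained or lost, or touching a control window, and the 3 genes most like the summed cover. Other regions described for their recurrence were chosen after their values were seen. The genes and lists were chosen with earlier results of these data known. Python 3.11.15, numpy 2.4.6, pandas 2.3.3 and scipy 1.17.1 were used. Gene spans and starts came from RefSeq tables of GRCm38.p6. The marker lists of leukocytes (7 of 8 genes with a peak in at least 1 library), fibroblasts (5 of 6) and endothelial cells (5 of 5) were described by the same percent. Only genes with such a peak entered the counts and means of a list.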

Additional observations from a re-analysis of the deposited data

Results flagged for a closer look

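In 3 loci the covered percent took opposite sides of the sham mean at different times, in all 3 libraries of each time. At Dlk1-Meg3 the 72 h mean was 7.07% and the 6 h mean 4.25%, a difference of 2.82 percentage points, with a sham mean of 4.98%. At Igf2r the 72 h mean was 3.68% and the 10 min mean 0.511%, a difference of 3.17 points, with a sham mean of 1.84%. At Grb10 the 72 h mean was 1.37%, that is 1.20 points above 1 h (0.167%) and 1.37 points above 6 h (0.0%), with a sham mean of 0.774%. These differences between times were not tested. The lists at 72 h were the longest on average, with 56084 ± 6528 peaks, against 44457 ± 7597 at 10 min, 44440 ± 1033 at 1 h and 42620 ± 8149 at 6 h (SD, n = 3). With 34255 peaks from every list, the difference at Dlk1-Meg3 was 0.116 points, and 1 library at 6 h lay above the sham mean, so the libraries no longer took opposite sides. At Igf2r it was 1.86 points and at Grb10 1.21 points against both 1 h and 6 h, with the libraries still on opposite sides of the sham mean.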

How the results depend on the processing

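The adjusted permutation test over the 6 groups called 0 of 8 loci under each alternative, which does not show stability. On simulated data with only 72 h shifted it found 0.0% even at 8 SD. A shift at 72 h alone leaves the other groups interchangeable, which limits this test whatever the size of the shift. Shifts of several groups were not simulated. Outside the leave-one-out fits, 0 to 2 loci had an unadjusted p under 0.05, and limma called 0 of 8. With only peaks of a score of at least 100, comparisons below sham numbered 0, regions gained 0 and regions in all 18 libraries 0, and the control windows of Airn, Plagl1 and Gnas had a peak in 1 library each, that of Snrpn in 0 and that upstream of Meg3 in 15. With equal numbers of top-scoring peaks, 1 comparison lay above sham (Igf2r at 72 h) and 1 below (Snrpn at 10 min), 1 region was gained and 1 lost, and the Airn and Snrpn windows had a peak in 2 and 0 libraries. With flanks of 2000 bases, 2 comparisons lay below sham. The causes were not tested. Covering 50% of a region or 500 bases of a window changed no count. The shares of all windows above or below sham, and of all regions gained or lost, were not computed under these alternatives. Their counts therefore have no background and are not read as particular to the loci.

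Leaving out 1 library at a time gave 0 to 6 comparisons above sham, 5 to 10 below, 2 to 5 regions gained, 0 to 6 lost and 0 to 1 libraries at the Snrpn start. Gains were 4 without 24 h replicate 3 or 72 h replicate 1 and 5 without 72 h replicate 2. The region upstream of Meg3 stayed in all libraries in each case. Fewer libraries make these rules easier to meet, and the shares over all windows and regions were not computed for them.

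With the replicate number as a block, each library was compared only with the sham library of the same number. A comparison counted when all its differences had the same sign. By this rule 2 comparisons lay above sham and 9 below. It is easier to meet than the rule that all libraries of a time lie beyond all sham libraries. Its shares over all windows were not computed, so these counts do not show more separation from sham. In the adjusted test over the groups with this block, 0 loci passed. Same-numbered libraries did not deviate together: 45 correlations ranged from -0.0751 to 0.0899, so the numbers were not taken as pairs.

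The lists have no depth, so a missing peak sets no upper limit on methylation, and 3 libraries per group cannot give an exact p under 0.1.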
